A study of Mus musculus with 6 samples.

Results

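The 4 mouse Notch receptor genes, Notch1, Notch2, Notch3 and Notch4, were read in every cell class of mammary tumours and of the residual tissue left after treatment. All 4 rows named by the gene family were present, out of 22547 genes in each of 2 tables of unique molecular identifier (UMI) counts, where a UMI is a counted RNA molecule. Notch receptors are transmembrane proteins that are activated by Jagged and Delta-like ligands on a neighbouring cell. Ligand binding opens the receptor to cleavage by an ADAM protease and then by gamma-secretase, and the released intracellular domain joins RBPJ and Mastermind-like proteins on target genes such as Hes1 and Hey1. Notch signalling is known for its part in luminal cell fate in the mammary gland. Elsewhere Notch1 is known from early T cells, Notch2 from some dendritic and B cells, Notch3 from mural cells of vessels and Notch4 from endothelium.

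The series asks how dormant residual disease differs from primary and recurrent tumours and how residual disease looks after an antibody against the Notch ligand Jagged-1. Tumours carried the labels MMTV-Wnt1/iFGRR followed by a number from 1 to 6, in which the mouse mammary tumour virus promoter drives Wnt1, and were transplanted into hosts, with FVB (FVB.rGH-Luc-GFP) given as the strain. Growth was started in every group with the B/B homodimerizer, a drug that pairs the inducible receptor. The fibroblast growth factor receptor inhibitor NVP-BGJ398 was then given for 14 days and withheld for 14 days to obtain residual tissue.

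There were 6 libraries, 1 for each group, and the labels do not say how many mice went into a library. The Primary library came from mice of 8 to 10 weeks (genotype label ending in 2), Dormant from mice of 10 to 12 weeks (ending in 1), Long-term dormant from mice of 32 to 34 weeks (ending in 4) and Recurrent from mice of 20 to 22 weeks (ending in 3). The Jag1 library (ending in 6) and the IgG library (ending in 5) came from mice of 16 weeks with residual disease, given anti-Jagged-1 or control IgG at 15 mg/kg weekly for 5 weeks and sampled 1 week later. Cells were frozen, thawed and sorted as live by DAPI, so host cells and tumour cells were measured together. The stage libraries used version 2 and the antibody libraries version 3 of the Chromium 3' kit, so levels were compared within a kit version unless stated. Age differs between the stage groups, and age and stage cannot be told apart. The 14 days of inhibitor and 14 days without it are given for every library except Primary. Inhibitor treatment and stage therefore cannot be told apart in comparisons with Primary.

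The receptors lie on 3 chromosomes of mm10 (GENCODE vM21 annotation). Notch1 is on chromosome 2 from 26457903 to 26516663 on the minus strand and Notch2 on chromosome 3 from 98013527 to 98150361 on the plus strand. Notch3 spans 32120820 to 32166852 on the minus strand and Notch4 34564268 to 34588503 on the plus strand, both of chromosome 17. The antisense genes 0610009E02Rik and Gm13568 overlap the end of Notch1 and Gm17276 overlaps the end of Notch3. None of those 3 has a row of its own, and the use of strand in counting is not given in the sources used here. Gpsm3, on the strand of Notch4, starts 1303 bases beyond its end. It was at 148 to 213 CPM (UMIs per 1000000 UMIs of the class) in T cells, where Notch4 was at most 1.96 CPM.

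The promoters of Notch1 and Notch3 are shown because these 2 receptors had their highest epithelial levels in the same libraries. Each runs from 250 bases before to 50 bases after the start that RefSeq gives on GRCm38.p6, 5′ to 3′ on the gene's strand, with CG dinucleotides in capitals (chr2:26503773-26504072 for Notch1 and chr17:32166841-32167140 for Notch3, both on the minus strand).
Notch1: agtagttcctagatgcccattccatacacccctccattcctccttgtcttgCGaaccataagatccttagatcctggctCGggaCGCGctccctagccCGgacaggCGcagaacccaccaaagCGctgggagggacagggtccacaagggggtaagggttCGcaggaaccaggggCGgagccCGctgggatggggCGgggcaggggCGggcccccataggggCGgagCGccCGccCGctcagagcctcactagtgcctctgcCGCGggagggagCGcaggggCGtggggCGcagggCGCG
Notch3: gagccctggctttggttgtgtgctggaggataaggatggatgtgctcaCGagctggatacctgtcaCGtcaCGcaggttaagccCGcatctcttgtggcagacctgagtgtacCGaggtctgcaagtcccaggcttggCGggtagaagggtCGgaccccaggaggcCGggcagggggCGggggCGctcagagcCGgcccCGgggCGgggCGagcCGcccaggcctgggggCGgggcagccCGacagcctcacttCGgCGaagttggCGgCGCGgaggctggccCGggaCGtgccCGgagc
They hold 23 and 25 CG dinucleotides in the order shown, against 41 for Notch2 and 5 for Notch4 and a median of 7 over 32851 promoters of the same length. At least 23 were present in 21.5% of those promoters and at least 41 in 3.46%, and at most 5 were present in 43.6%. The RBPJ core TGGGAA was found on neither strand of the 4 windows, while 25.6% of all promoters held it. These are counts of letters in a window and say nothing about use of the site.

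The libraries held 2133 to 6083 barcodes and 9735651 to 41259292 UMIs, with medians of 2568 to 7065 UMIs per barcode. Cells were placed in a class by their own markers, with no Notch gene among them: at least 3 detected markers of the class and a lead of 2 over every other class. All 8 fixed markers of each class (12 for dendritic cells) were in the tables, and each class had all its own markers detected in every library with at least 50 of its cells. Sums of at least 50 cells were available from 4 libraries for epithelial cells (4217 cells) and macrophages (3031), 3 for fibroblasts (3376), dendritic cells (544) and NK cells (194), and 6 for T cells (6099). The Jag1 and IgG libraries shared 131 barcodes, 6.14% of the smaller library, while pairs of stage libraries shared 26 to 50. In 129 of the 131 the UMI totals were over 5-fold apart between the Jag1 and IgG libraries. The median correlation of log counts was 0.64 for the same barcode and 0.48 for barcodes paired at random. Carry-over between these libraries was not tested. Leaving those 131 out changed no call of any class test or ratio of the receptors.

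Notch1 was higher in epithelial cells, and by less in T cells, than in the mean of the other classes within libraries. Epithelial cells had 29.3, 58.7, 49.6 and 21.1 CPM in Primary, Dormant, Long-term dormant and Recurrent. T cells had 13.0, 28.2, 33.7 and 15.1 CPM in those 4 libraries, and 64.4 CPM in Jag1 and 53.9 CPM in IgG. NK cells had 21.9 CPM in Dormant from 3 UMIs, 46.4 CPM in Jag1 and 62.9 CPM in IgG. In each of the 4 stage libraries the epithelial level was above the T cell level, although the intervals overlapped in Long-term dormant and in Recurrent (19.3 to 22.9 CPM in epithelial and 9.11 to 23.6 CPM in T cells). The 2 lymphoid classes had their highest values in the antibody libraries. Those used another kit version than the stage libraries, so kit and group cannot be told apart there.

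Notch1 values in fibroblasts and the myeloid classes were at most 23.5 CPM in libraries with at least 50 cells of the class, and of these classes only fibroblasts passed the test for a lower level. Fibroblasts had 13.0, 14.1 and 2.67 CPM in Dormant, Long-term dormant and Recurrent. Macrophages had 7.46, 11.8, 23.5 and 10.8 CPM from Primary to Recurrent in stage order, and dendritic cells 2.41, 8.79 and 16.2 CPM in Primary, Dormant and Long-term dormant. In order of their median over libraries the classes ran NK 46.4, epithelial 39.5, T 31.0, fibroblast 13.0, macrophage 11.3 and dendritic 8.79 CPM, an order that mixes kit versions, since no epithelial sum and 2 of 3 NK sums came from version 3.

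Each class was then set against the mean of the others with library as a term (edgeR's quasi-likelihood test on 23 sums of class and library, 12 residual degrees of freedom, Benjamini-Hochberg adjustment over 11000 genes, called under 0.05). The standard errors come from the fit and rest on the spread between sums of 1 library per group, so they do not measure the spread between mice. Notch1 was higher in epithelial cells by a log2 difference of 1.45 ± 0.19 (SE, adjusted p = 7.8e-06) and in T cells by 0.60 ± 0.19 (SE, adjusted p = 0.019). It was lower in fibroblasts, at -1.08 ± 0.26 (SE, adjusted p = 0.0028). Dendritic cells were at -0.86 ± 0.30 (SE, adjusted p = 0.060), macrophages at -0.04 ± 0.22 (SE) and NK cells at -0.06 ± 0.35 (SE), none of them called. Between neighbours in the order, epithelial cells were higher than NK cells (1.26, adjusted p = 0.020), although the order of medians puts NK cells first. Epithelial cells were also higher than T cells (0.71, adjusted p = 0.020). Fibroblasts were lower than T cells (-1.40, adjusted p = 0.00078) and lower than macrophages (-0.87, adjusted p = 0.025). Macrophages against dendritic cells (0.68, adjusted p = 0.19) was not called. T against NK cells (0.55, adjusted p = 0.37), not neighbours in the order, was not called either. The T cell call was lost without Primary (adjusted p = 0.079), without Dormant (0.18) or without Jag1 (0.055).

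Some pair calls for Notch1 were lost under other settings. Epithelial against NK cells was lost without Primary (edgeR adjusted p = 0.072), Dormant (0.13) or Jag1 (0.12). It was lost with classes from clusters (edgeR adjusted p = 0.18), library totals only (0.051) and DESeq2 (DESeq2 adjusted p = 0.053). It was also lost in stage libraries (1.39) and without cells holding an endothelial or pericyte marker (1.30). With no library term it was at 0.05 (edgeR adjusted p = 0.96). Epithelial against T cells was lost without Primary (edgeR adjusted p = 0.086), Dormant (0.076) or IgG (0.056), with classes from clusters (0.18) and without cells holding an endothelial or pericyte marker (0.078), and was at 0.02 with no library term (edgeR adjusted p = 0.97). Fibroblasts against macrophages was lost without Dormant (0.056), Long-term dormant (0.070) or Recurrent (-0.59, edgeR adjusted p = 0.18), with DESeq2 (0.075), library totals only (0.079), no filter on low counts (0.078), a gate of 4 markers and a lead of 3 (0.081) or without the same marked cells (0.076), and with no library term (-0.43, edgeR adjusted p = 0.62). Epithelial cells against fibroblasts (2.11) and fibroblasts against T cells (-1.40) were called in every alternative run.

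Notch2 was higher in dendritic cells and fibroblasts and lower in epithelial and T cells than in the mean of the other classes. Fibroblasts had 72.6, 81.1 and 50.8 CPM in Dormant, Long-term dormant and Recurrent. Dendritic cells had 62.5, 45.2 and 171 CPM in Primary, Dormant and Long-term dormant, and macrophages 29.4, 34.1, 81.7 and 30.3 CPM in the 4 stage libraries in stage order. The Long-term dormant library held the highest value in all 3 classes.

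In epithelial cells Notch2 was at 21.4, 10.5, 19.5 and 17.8 CPM in the 4 stage libraries. T cells had 20.9, 17.6, 25.3 and 31.1 CPM there, and 33.7 CPM in Jag1 and 42.2 CPM in IgG. NK cells had 40.6 CPM in Jag1 and 31.4 CPM in IgG, and 1 UMI in Dormant. No epithelial value reached the lowest value of fibroblasts, macrophages or dendritic cells, and the same held for T cells of the stage libraries against fibroblasts and dendritic cells.

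In the class test Notch2 was higher in dendritic cells by a log2 difference of 1.69 ± 0.27 (SE, adjusted p = 0.00014) and in fibroblasts by 1.02 ± 0.26 (SE, adjusted p = 0.0035). It was lower in epithelial cells, at -1.23 ± 0.26 (SE, adjusted p = 0.00081), and in T cells, at -0.63 ± 0.22 (SE, adjusted p = 0.036). Macrophages (0.41 ± 0.24, SE, adjusted p = 0.21) and NK cells (-1.27 ± 0.44, SE, adjusted p = 0.073) were not called. By their median the classes ran fibroblast 72.6, dendritic 62.5, macrophage 32.2, NK 31.4, T 28.2 and epithelial 18.7 CPM, an order that mixes kit versions. In stage libraries alone T cells had a median of 23.1 CPM, and NK cells were at 7.29 CPM from 1 UMI in Dormant. Fibroblasts against dendritic cells (-0.56, adjusted p = 0.19), fibroblasts against macrophages (0.51, adjusted p = 0.19), macrophages against NK cells (1.39, adjusted p = 0.053) and epithelial against T cells (-0.50, adjusted p = 0.18) were not called, whereas macrophages were lower than dendritic cells (-1.07, adjusted p = 0.020) and higher than T cells (0.86, adjusted p = 0.024). Macrophages against dendritic cells was lost without Primary (edgeR adjusted p = 0.065) or Long-term dormant (-0.70, 0.22), and macrophages against T cells without Dormant (0.066) or Long-term dormant (0.064). With no library term they were at edgeR adjusted p = 0.082 and 0.095 in that order, and with a gate of 4 markers and a lead of 3 at 0.084 and 0.078. The first was also lost without cells holding an endothelial or pericyte marker (0.064), and the second with library totals only (0.061). The fibroblast call was lost without Dormant (0.60, adjusted p = 0.16), and the T cell call was lost without any of Primary, Dormant, Long-term dormant, Jag1 or IgG.

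Notch3 was found mainly in epithelial cells, at a lower level in fibroblasts and almost nowhere else among these 6 classes. Epithelial cells had 12.1, 37.0, 42.6 and 9.35 CPM in Primary, Dormant, Long-term dormant and Recurrent, from 125, 53, 24 and 240 UMIs. Fibroblasts had 5.19 CPM in both Dormant and Long-term dormant and 2.67 CPM in Recurrent. Every epithelial value was above every fibroblast value. Macrophages held 4 UMIs among 3031 cells and dendritic cells 2 UMIs in 1 of 544 cells.

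In T cells no Notch3 UMI was found among 25622872 UMIs of 6099 cells, which allows up to 0.117 CPM (3 counts), and in NK cells none was found among 908344 UMIs, which allows up to 3.3 CPM. The T cells of the stage libraries came from the same libraries as epithelial cells with Notch3 UMIs, and carry-over of RNA between cells was not tested. Epithelial cells exceeded fibroblasts by a log2 difference of 2.58 ± 0.54 (SE, adjusted p = 0.0021), and fibroblasts exceeded macrophages by 3.21 ± 0.80 (SE, adjusted p = 0.0051). Contrasts with the mean of the other classes are not given for Notch3, because T and NK cells were at 0 and the fitted value then depends on the prior count.

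Fibroblast sums also carried RNA of vessel wall markers. Of the 8 pericyte markers, 6, 7 and 5 were detected in fibroblasts of Dormant, Long-term dormant and Recurrent, with summed levels of 149.8, 80.2 and 173.7 CPM, and Higd1b was at 0 in all 3. Without cells that held any endothelial or pericyte marker UMI, Notch3 in fibroblasts was at 2.17 CPM in Dormant and 4.12 CPM in Long-term dormant. In epithelial cells the pericyte list summed to 2.80 to 10.0 CPM over the 4 stage libraries, and it was lower in Dormant and Long-term dormant than in Primary and Recurrent. The part of these markers in the Notch3 levels was not tested.

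Notch4 was sparse: 139 UMIs in the 2 tables together, and it did not pass the filter on low counts of the class test. Dendritic cells had the highest level, at 16.8, 12.6 and 5.95 CPM in Primary, Dormant and Long-term dormant, from 7, 10 and 11 UMIs. Epithelial cells had 2.71, 2.10 and 0.818 CPM in Primary, Dormant and Recurrent and no UMI in Long-term dormant. T cells held 14 UMIs in 6099 cells, macrophages 8 in 3031, fibroblasts 2 in 3376 and NK cells none in 194. The dendritic value was the highest of the 6 classes in each of these 3 libraries, and the depth of other classes limits this. In Dormant the interval for dendritic cells (6.02 to 23.1 CPM) met that for epithelial cells (0.432 to 6.13 CPM), and 0 UMIs in NK cells allow up to 21.9 CPM (3 counts). In Long-term dormant 0 UMIs allow up to 5.32 CPM in epithelial and 8.43 CPM in T cells, against an interval of 2.97 to 10.6 CPM in dendritic cells. No fitted class difference is given for Notch4, which did not pass the filter on low counts. Endothelial markers summed to 31.4 to 48.1 CPM in dendritic cells, led by Vwf, with Cldn5 and Emcn at 0 in all 3 libraries. Without cells holding any such marker Notch4 was at 13.5, 8.33 and 5.68 CPM in Primary, Dormant and Long-term dormant.

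Of the 3 receptors tested, Notch1 and Notch2 were both called in epithelial cells, where 43.6% of all genes were called, in fibroblasts, where 43.4% were, and in T cells, where 32.0% were. Notch2 alone of those 2 was called in dendritic cells (17.4% of all genes), and neither in macrophages (32.8%) or NK cells (11.4%). For pairs of classes, the share of all genes called was 37.1% for epithelial cells against fibroblasts, 48.3% for epithelial against T cells, 41.2% for fibroblasts against macrophages, 17.3% for macrophages against dendritic cells and 41.8% for macrophages against T cells. It was 42.3% for fibroblasts against dendritic cells, 20.4% for macrophages against NK cells and 5.65% for T against NK cells. Of the 11000 genes, 1706 were called higher and 1085 lower in epithelial than in NK cells. In fibroblasts against T cells 2931 were called higher and 2590 lower. With shares of this size a call is common for any gene, so the sizes and directions above are what describes the receptors.

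**Figure D1:**
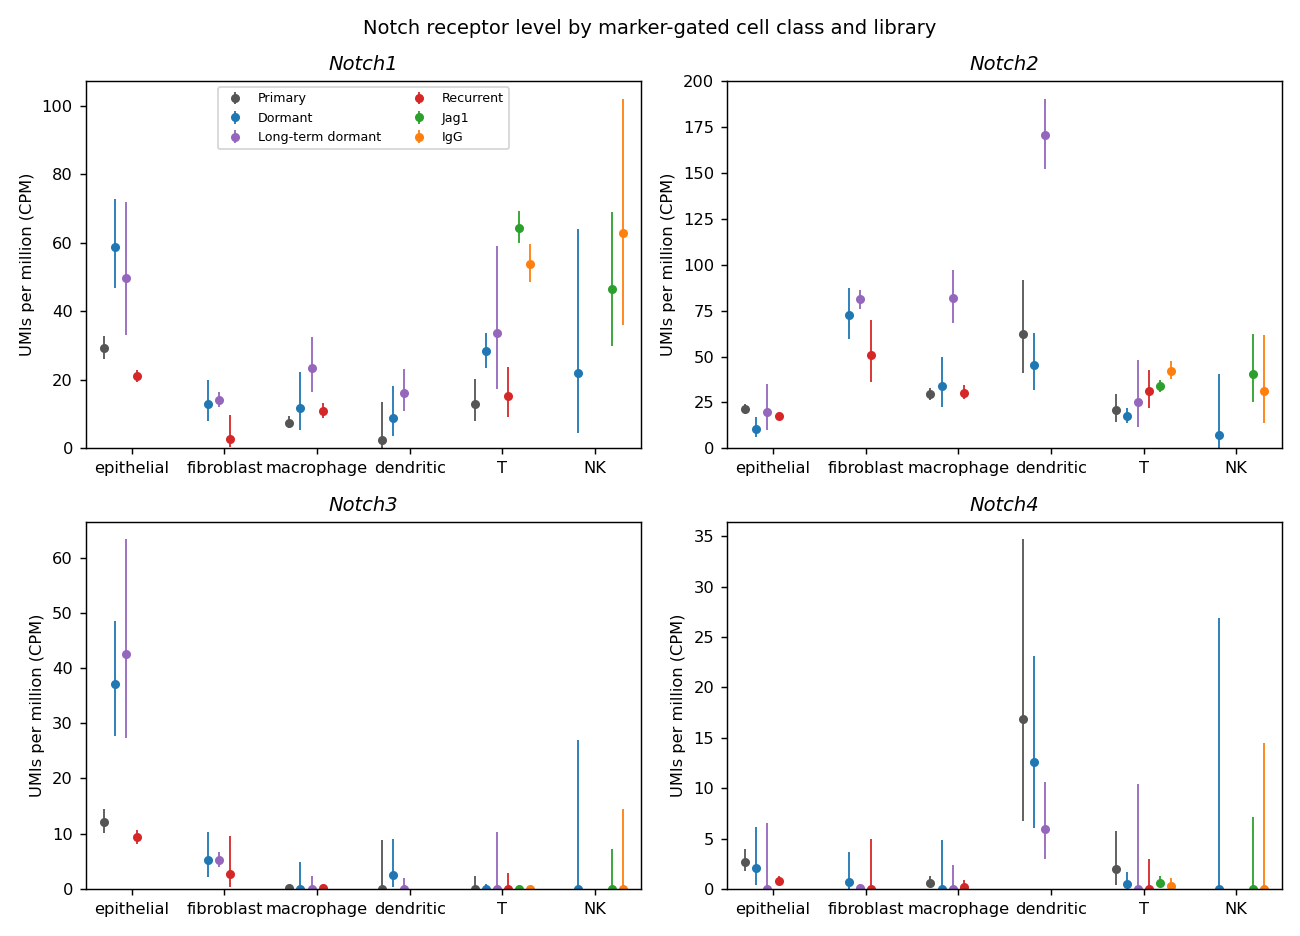
Level of each Notch receptor (vertical axis, UMIs per 1000000 UMIs of the class; the scale differs between panels) in the 6 marker-gated classes, 1 point for each library with at least 50 cells of the class, with its exact 95% Poisson interval for counting error. Notch1 is highest in Jag1 T cells at 64.4 CPM, Notch2 in Long-term dormant dendritic cells at 171 CPM, Notch3 in epithelial cells and Notch4 in dendritic cells.

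The class that supplied most receptor RNA differed between libraries, because class sizes differed as well as levels. For Notch1, epithelial cells held 303 of 505 UMIs in Primary and 74.3% in Recurrent. In Dormant T cells held 31.9% and epithelial cells 22.3%, and in Long-term dormant fibroblasts held 42.0%. In the antibody libraries T cells held 84.5% of Notch1 UMIs in Jag1 and 76.9% in IgG. Epithelial cells thus held most Notch1 UMIs in the 2 libraries of growing tumours and in none of the other 4.

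For Notch2, macrophages held 43.3% of the UMIs in Primary and 28.9% in Recurrent, where epithelial cells held 51.5%. Fibroblasts held 30.6% in Dormant and 48.3% in Long-term dormant, and dendritic cells of Long-term dormant held 16.3% of Notch2 UMIs with 6.68% of the library's cells. For Notch3, epithelial cells held 60.9% of the Dormant UMIs while making up 4.73% of its cells. Pericyte-marked cells of Primary, 17 cells and 0.398% of its cells, held 23.5% of its Notch3 UMIs. Cells with no class held 8.10 to 30.1% of Notch1 and Notch2 UMIs over the 6 libraries.

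**Figure D2:**
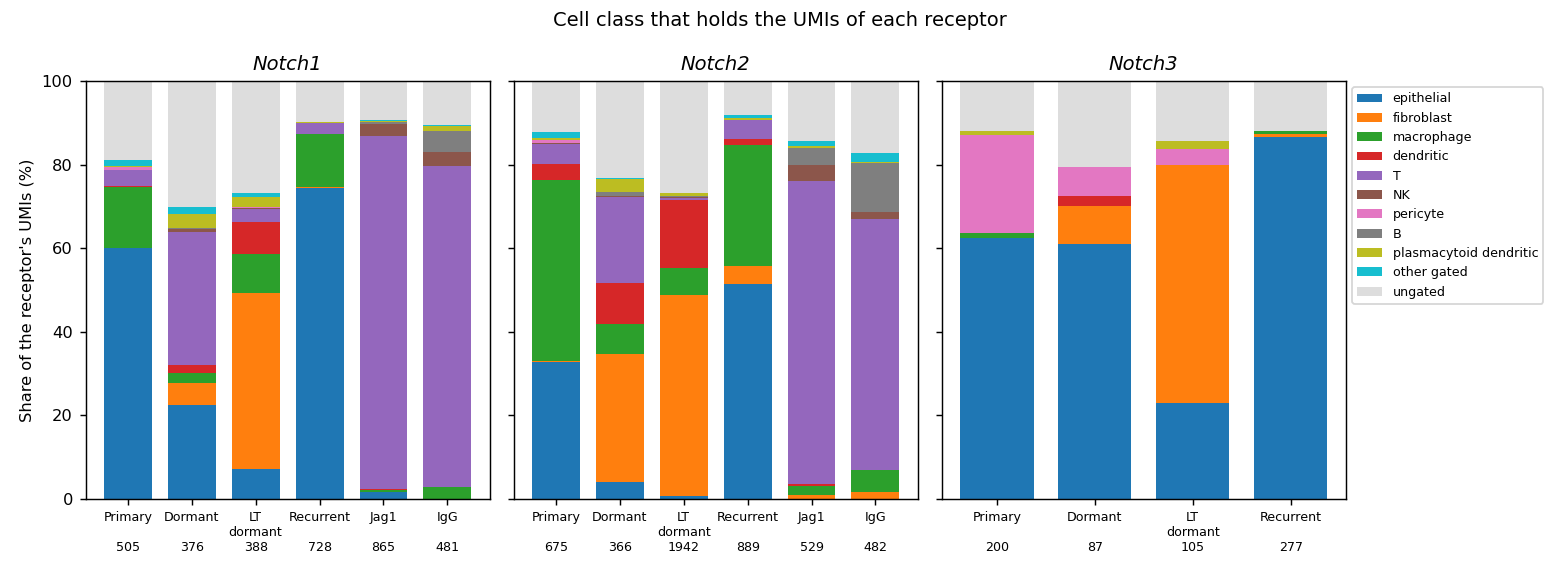
Share of the UMIs of Notch1, Notch2 and Notch3 (vertical axis, percent) that lay in each cell class, by library, with the number of UMIs of the receptor in the library under each bar; Notch3 is shown for the stage libraries only. Epithelial cells supply most Notch1 in Primary and Recurrent and T cells in Jag1 and IgG, while Notch3 is epithelial in 3 of 4 stage libraries and mainly fibroblast in Long-term dormant.

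Stages were then compared within a class. With 1 library per stage there is no test: a ratio is described as past the threshold when its exact conditional Poisson interval, which covers counting error only, lay on 1 side of 0, the change was at least 2-fold and both libraries together held at least 20 UMIs. Over 22 combinations of class and comparison, 55 of 88 receptor ratios had enough UMIs and 14 were past the threshold. In the same combinations 2.61% to 19.0% of all genes with enough UMIs were past it. The comparisons share libraries, so a high or low library enters several of them.

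In epithelial cells Notch1 and Notch3 were higher in the 2 residual libraries than in the growing tumours. In Dormant against Primary the log2 ratio was 1.01 (0.64 to 1.36) for Notch1 and 1.62 (1.12 to 2.09) for Notch3, so 2 of 4 receptors were past the threshold where 16.8% of all genes were. Notch2 went the other way, at -0.98 (-1.89 to -0.27). Recurrent against Dormant gave -1.49 for Notch1 and -2.0 for Notch3 (19.0% of genes), and Recurrent against Long-term dormant gave -1.26 for Notch1 and -2.21 for Notch3 (16.6% of genes). Between Long-term dormant and Dormant no receptor was past the threshold (15.6% of genes).

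Only Notch4 was past it in Recurrent against Primary epithelial cells, at 0.818 CPM in Recurrent and 2.71 CPM in Primary, a log2 ratio of -1.72 (-2.62 to -0.86), where 14.2% of all genes were. An eGFP UMI, from a transgene in the tables, was seen in 1549 of 1552 Primary, 127 of 155 Dormant, 1 of 101 Long-term dormant and 2388 of 2409 Recurrent epithelial cells. In the 127 Dormant cells with eGFP, which make up most of the class, Notch1 was at 61.6 CPM and Notch3 at 37.3 CPM. In the 100 Long-term dormant cells without eGFP they were at 47.3 and 43.7 CPM, and what eGFP marks is not given in the labels. The epithelial cells compared between stages thus differ in eGFP, and the part of this in the ratios was not tested. Fibroblast markers summed to 6.86, 297.7, 390.1 and 11.8 CPM in epithelial cells of the 4 stage libraries in stage order, and their part in the result was not tested.

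In fibroblasts Notch1 had 2 UMIs in 104 Recurrent cells, and Recurrent was compared with Dormant and Long-term dormant. The log2 ratio was -1.99 (-5.42 to -0.24) in Recurrent against Dormant, 1 receptor past the threshold where 12.7% of all genes were, and -2.08 (-5.46 to -0.52) in Recurrent against Long-term dormant, where 7.18% were. Notch2 was lower in Recurrent by less than 2-fold, at -0.50 (-1.09 to 0.03) against Dormant and -0.66 (-1.18 to -0.21) against Long-term dormant. Long-term dormant against Dormant gave 0.09 for Notch1, 0.15 for Notch2 and -0.08 for Notch3, none past the threshold (13.1% of genes). Only 8 Primary cells were fibroblasts, so that stage is not compared. Epithelial markers in the fibroblast sums were at 138.8, 26.6 and 382.1 CPM in Dormant, Long-term dormant and Recurrent, and their part in the result was not tested.

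In macrophages both Notch1 and Notch2 were highest in Long-term dormant. Notch2 stood at a log2 ratio of 1.24 (0.64 to 1.93) in Long-term dormant against Dormant, with 14.4% of all genes past the threshold. In Recurrent against Long-term dormant Notch2 was at -1.44 (-1.75 to -1.11) and Notch1 at -1.13 (-1.69 to -0.52), against 17.0% of all genes. No receptor was past it in Dormant against Primary (14.0% of genes), Recurrent against Dormant (13.3%) or Recurrent against Primary (6.08%), where Notch1 was at 0.54 (0.08 to 1.00) and Notch2 at 0.04 (-0.21 to 0.29). Macrophage markers summed to 3394 CPM in Long-term dormant and 16372 CPM in Primary, and fibroblast markers in those sums to 318.5 CPM in Long-term dormant and 11.4 CPM in Primary; their part in the result was not tested.

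In dendritic cells Notch2 of Long-term dormant was set apart from both earlier stages. It was at 171 CPM (152 to 191) in 392 Long-term dormant cells and 45.2 CPM (31.7 to 62.6) in 92 Dormant cells, a log2 ratio of 1.90 (1.42 to 2.46), with 12.2% of all genes past the threshold. Dormant against Primary gave -0.48 (-1.24 to 0.32), not past it (14.7% of genes). Notch4 went the other way in Long-term dormant against Dormant, at -1.09 (-2.45 to 0.31), within counting error. Fibroblast markers in the dendritic sums were at 0, 50.2 and 237.3 CPM in Primary, Dormant and Long-term dormant, and macrophage markers at 230.9, 438.4 and 158.4 CPM. The part of both lists in the result was not tested.

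In T cells Notch1 was higher in Dormant than in Primary, at a log2 ratio of 1.08 (0.42 to 1.88), 1 receptor past the threshold where 16.0% of all genes were. Recurrent against Dormant was at -0.87 (-1.68 to -0.19) for Notch1 and 0.82 (0.22 to 1.39) for Notch2, both under 2-fold (14.3% of genes past the threshold). No receptor was past it in Long-term dormant against Dormant (11.7%), Recurrent against Primary (4.42%) or Recurrent against Long-term dormant (12.4%). Epithelial markers in the T cell sums were at 104.5 CPM in Dormant and 112.8 CPM in Primary, and fibroblast markers at 67.1 CPM in Dormant and 3.91 CPM in Primary. Their part in the result was not tested.

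**Figure D3:**
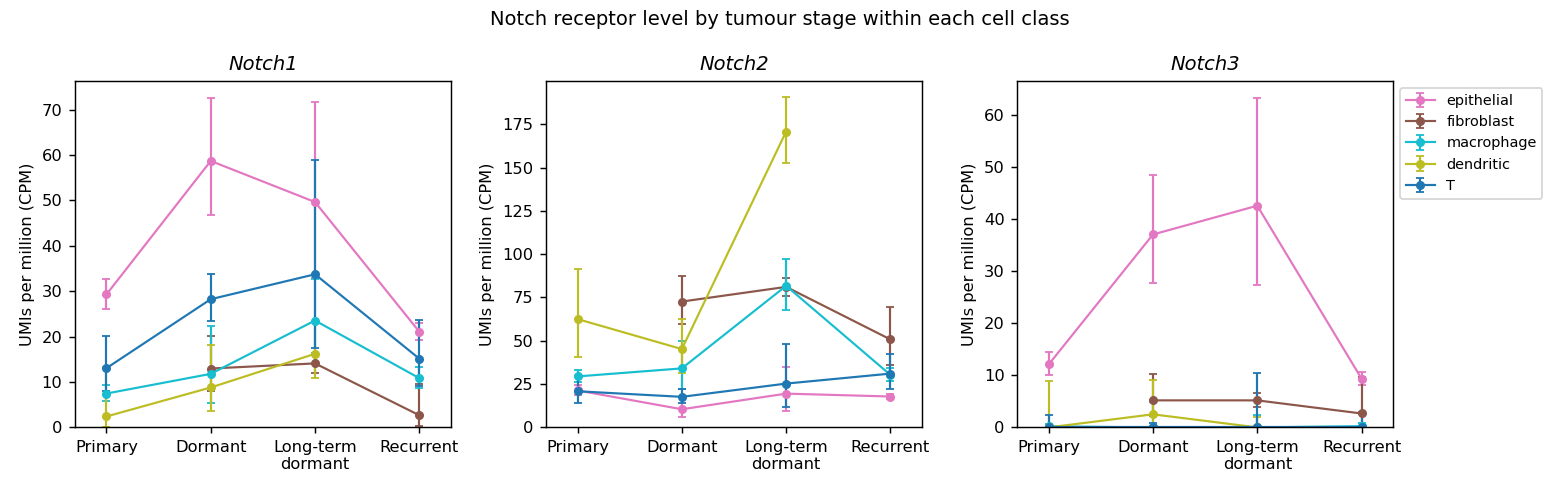
Level of Notch1, Notch2 and Notch3 (vertical axis, UMIs per 1000000 UMIs of the class) by stage library for 5 classes with at least 50 cells, with exact 95% Poisson intervals; lines join libraries of a class and are not a time course in 1 animal. Epithelial Notch1 and Notch3 are highest in the 2 dormant libraries, and Notch2 of dendritic cells and macrophages is highest in Long-term dormant, at 171 and 81.7 CPM.

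Of the 6 classes, T and NK cells had at least 50 cells in both antibody arms, while the Jag1 library held 7 epithelial cells and the IgG library none. T cells were the largest class, with 2129 cells in Jag1 and 1597 in IgG. Notch1 was at 64.4 CPM (59.8 to 69.2) in Jag1 and 53.9 CPM (48.5 to 59.6) in IgG, a log2 ratio of 0.26 (0.07 to 0.44). Notch2 was at 33.7 CPM (30.4 to 37.3) in Jag1 and 42.2 CPM (37.5 to 47.4) in IgG, a log2 ratio of -0.32 (-0.55 to -0.10). Both intervals excluded 0 in opposite directions, but neither ratio reached 2-fold, and 2.61% of all genes were past the threshold.

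In NK cells, 90 in Jag1 and 52 in IgG, the log2 ratio for Jag1 against IgG was -0.45 (-1.41 to 0.57) for Notch1 and 0.32 (-0.86 to 1.75) for Notch2, neither past the threshold (5.49% of genes). Differences of up to those bounds could not be detected at this depth. No Notch3 UMI was found in T or NK cells of either arm, and Notch4 had 7 UMIs in Jag1 and 2 in IgG T cells.

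T cells were split by their own transcripts, where a cut at 1 UMI gives a range and not a type. In cells with Cd8a or Cd8b1 and no Cd4, Notch1 was at 65.1 CPM (58.9 to 71.8) in 1151 Jag1 cells and 49.8 CPM (42.3 to 58.2) in 757 IgG cells, and Notch2 at 34.4 CPM (29.9 to 39.4) in Jag1 and 48.2 CPM (40.9 to 56.5) in IgG. In cells with Foxp3, the regulatory T cell factor, Notch1 was at 55.6 CPM (36.9 to 80.4) in 73 Jag1 cells and 81.8 CPM (55.6 to 116) in 84 IgG cells. Cells with Cd4 alone had 72.4 CPM (59.3 to 87.6) in Jag1 and 58.7 CPM (44.6 to 75.9) in IgG. Notch2 was at 39.7 CPM in Jag1 and 39.6 CPM in IgG in Foxp3 cells, and at 26.0 CPM (18.4 to 35.6) in Jag1 and 36.5 CPM (25.5 to 50.5) in IgG in Cd4 cells. The intervals of the arms did not overlap in the Cd8 cells and overlapped in the smaller Foxp3 and Cd4 subsets. Whether the arms differ more in one subset than in another was not tested.

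**Figure D4:**
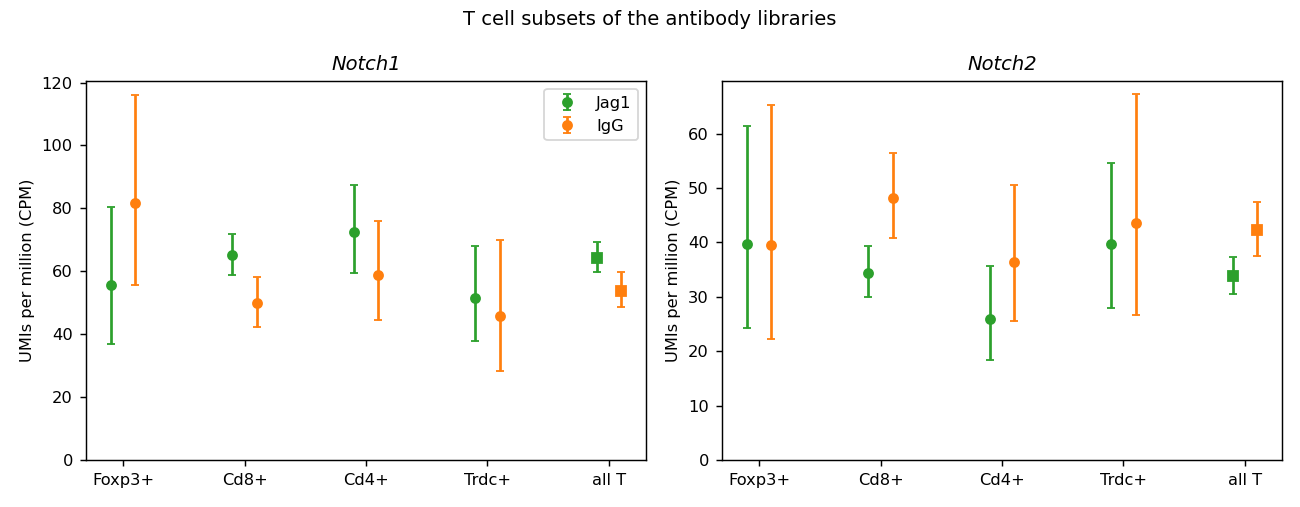
Level of Notch1 and Notch2 (vertical axis, UMIs per 1000000 UMIs of the subset) in T cells of the Jag1 and IgG libraries, split by detected transcript, with exact 95% Poisson intervals; squares give all T cells. The Cd8 cells show Notch1 at 65.1 CPM in Jag1 and 49.8 CPM in IgG, and Notch2 at 34.4 CPM in Jag1 and 48.2 CPM in IgG.

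Within dendritic cells Notch4 lay mostly in the type 1 subset, the cross-presenting cells marked by Xcr1 or Clec9a. Over the 3 libraries with at least 50 dendritic cells, 19 of 266 type 1 cells held 25 of 28 Notch4 UMIs (14.7 CPM). These 266 of 544 dendritic cells held 1703323 of 3061756 UMIs of all genes. The 59 migratory cells held 1 Notch4 UMI (3.29 CPM) among 303563 UMIs. None was found among 458515 UMIs of 96 type 2 cells, which are marked by Cd209a. The 2 smaller subsets are thus limited by depth. By library, type 1 cells had 23.7, 16.8 and 11.1 CPM in Primary, Dormant and Long-term dormant. Notch2 of Long-term dormant was high in every subset, at 186 CPM (160 to 215) in 188 type 1 cells, 158 CPM (118 to 206) in 75 type 2 cells and 128 CPM (68.1 to 219) in 34 migratory cells. In type 1 cells it was at 67.8 CPM in Primary and 48.1 CPM in Dormant, each from under 50 cells. The part of subset make-up in the stage difference was not tested. Notch1 in Long-term dormant was at 11.1 CPM (5.53 to 19.8) in type 1 and 35.7 CPM (18.4 to 62.3) in type 2 cells.

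**Figure D5:**
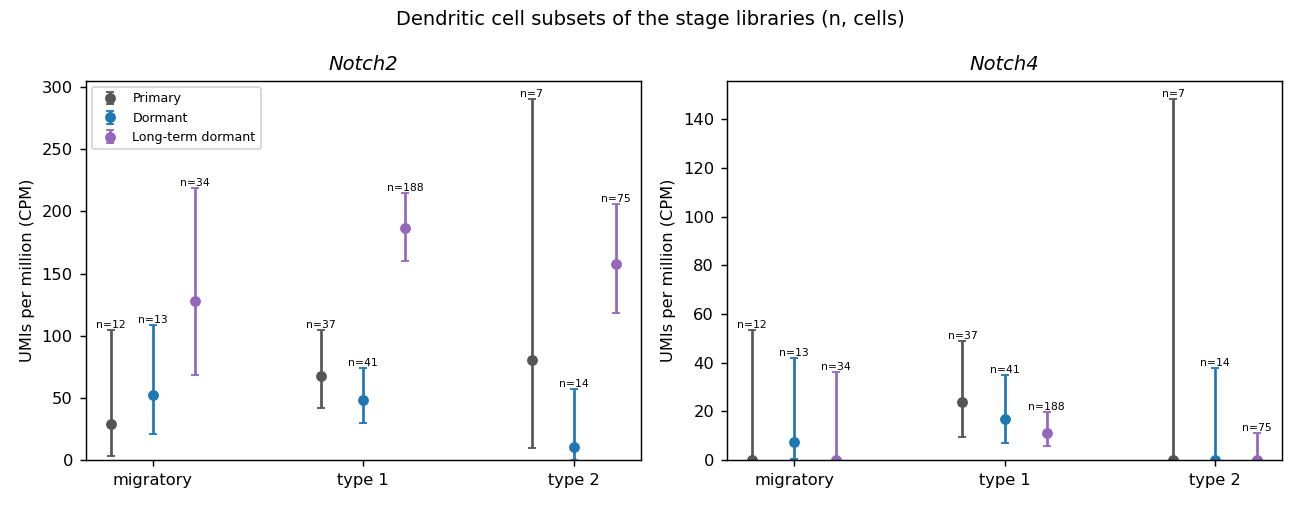
Level of Notch2 and Notch4 (vertical axis, UMIs per 1000000 UMIs of the subset) in migratory, type 1 and type 2 dendritic cells of 3 stage libraries, with exact 95% Poisson intervals and the number of cells above each; apart from type 1 and type 2 of Long-term dormant, each subset has under 50 cells. Notch2 is highest in Long-term dormant in all 3 subsets and Notch4 is seen mainly in type 1 cells.

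In Primary epithelial cells Notch3 was at 12.7 CPM (10.5 to 15.1) where luminal keratins led and 3.28 CPM (0.397 to 11.8) where basal keratins led, with 2 UMIs in 93 cells, and these intervals overlapped. Notch1 was at 28.7 CPM (25.4 to 32.2) in the luminal and 37.7 CPM (23.9 to 56.5) in the basal cells, with overlapping intervals. Among Dormant fibroblasts, 110 cells with Pi16 or Clec3b, markers of adventitial fibroblasts, had Notch2 at 105 CPM (77.7 to 139) and no Notch1 UMI. In Long-term dormant, 961 such cells had Notch2 at 84.0 CPM (73.9 to 95.1), against 57.4 CPM (31.4 to 96.3) in 63 cells with Postn. Among Long-term dormant macrophages, Notch2 was at 123 CPM (86.4 to 171) in cells with the monocyte transcripts Ly6c2 or Plac8, 81.7 CPM (62.5 to 105) in cells with Mrc1 and 57.1 CPM (37.9 to 82.5) in cells with neither.

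Outside the 6 classes, small numbers of marker-gated cells held high receptor levels. In 26 pericyte-marked cells of the stage libraries Notch3 was at 416 CPM (315 to 539), with a UMI in 20 cells. In 48 endothelial-marked cells Notch1 and Notch4 were each at 77.5 CPM (40.1 to 135), from 12 UMIs. Neutrophil-marked cells had Notch2 at 264 CPM (159 to 412) in the stage table and 338 CPM (185 to 567) in the antibody table, from 19 and 14 UMIs. B cells had Notch2 at 63.3 CPM (39.2 to 96.8) in 57 Jag1 cells and 65.7 CPM (49.6 to 85.3) in 155 IgG cells. Their Notch1 was at 18.1 CPM (6.64 to 39.4) in Jag1 and 28.1 CPM (18.0 to 41.9) in IgG, with overlapping intervals for both receptors, and they held no Notch3 or Notch4 UMI.

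Few plasma cells held a Notch1 or Notch2 UMI. In 112 plasma cells of the stage libraries Notch1 was seen in 2 cells (1.79%, 0.217 to 6.30%) and Notch2 in 1 cell (0.893%, 0.0226 to 4.87%). Plasmacytoid dendritic cells of the stage libraries had a Notch1 UMI in 9.05% and a Notch2 UMI in 10.5% of 210 cells. Nearly all of these plasma cells, 109 of 112, came from Dormant, with a median of 4398 UMIs per cell. Dormant T cells had a lower median of 2474.5 UMIs, with Notch1 in 103 and Notch2 in 69 of 1290 cells.

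Shares of cells followed depth, so cells were thinned to 1000 UMIs before shares were compared (intervals exact, Clopper-Pearson). After thinning, Notch2 was seen in 6.67% (1.85 to 16.2%) of Primary, 2.17% (0.264 to 7.63%) of Dormant and 16.0% (12.5 to 20.0%) of Long-term dormant dendritic cells. Without thinning the shares were 26.7% in Primary, 25.0% in Dormant and 39.8% in Long-term dormant. The share of epithelial cells with Notch1 was 2.58% (1.85 to 3.50%) in Primary and 7.74% (4.06 to 13.1%) in Dormant. In Long-term dormant it was 4.04% (1.11 to 10.0%), and in Recurrent 2.08% (1.55 to 2.74%). The Long-term dormant interval held the values of the other 3 stages. Thinned to 2000 UMIs instead, the Long-term dormant share was 12.4% (6.56 to 20.6%). That interval held the values of Primary (6.71%) and Dormant (11.3%) but not of Recurrent (4.58%). In T cells thinned to 1000 UMIs Notch1 was seen in 6.97% (5.92 to 8.13%) of Jag1 and 5.96% (4.85 to 7.24%) of IgG cells, with overlapping intervals.

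Many cells held no receptor UMI, and few held 2 receptors. A UMI of any of the 4 was found, without thinning, in 38.4% of Jag1 T cells (median 4697 UMIs per cell) and 31.7% of IgG T cells (median 3920), and the shares are not compared because the depths differ. Notch1 and Notch3 were detected together in 27 of 1552 Primary epithelial cells (1.74%) and in 18 of 155 Dormant cells (11.6%), where 50 had Notch1 and 35 had Notch3. In Long-term dormant 3 of 101 cells (2.97%) held both, where 20 had Notch1 and 20 had Notch3, and in Recurrent 43 of 2409 (1.79%). Depths also differ between these libraries. Notch1 and Notch2 were detected together in 92 of 2129 Jag1 T cells and 48 of 1597 IgG T cells.

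Of 39 fixed genes for ligands, glycosylation, cleavage, the nuclear complex, turnover and targets, 33 were tested. In epithelial cells 8 were higher and 6 lower, where 43.6% of all genes were called, with Hey1, a Notch target, at a median of 13.9 CPM in epithelial cells and 0.541 CPM in the other classes, and the fringes Mfng (-5.79) and Lfng (-2.5 on the log2 scale), which modify Notch sugars, lower, as was Rbpj (-1.48), the DNA-binding partner. In T cells 10 were higher and 7 lower, where 32.0% of all genes were called. Dtx1, at a median of 10.6 CPM in T cells, Nrarp (3.03), a regulator and target of Notch, and Mfng (2.88) were higher there and Hes1 (-3.09) was lower.

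In fibroblasts 9 were higher and 6 lower, where 43.4% of all genes were called, with Numbl (42.8 CPM in fibroblasts and 0.791 CPM in the other classes) and Hes1 (2.99) higher and Nrarp (-3.04) and Mfng (-2.78) lower. In macrophages 13 were higher and 4 lower (32.8% of all genes), with Dtx4 (41.5 CPM in macrophages and 8.38 CPM in the other classes) and the protease Adam17 (2.07) higher and Dtx1, at 0 in macrophages, and Nrarp (-2.83) lower. In dendritic cells 4 were higher and 3 lower (17.4% of all genes), with Mfng (2.04) and Aph1b (2.03), a gamma-secretase subunit, higher and Maml2 (-1.80) and Dtx3 (-1.50) lower. The median of Mfng was 21.7 CPM in dendritic cells and 23.0 CPM over the sums of the other classes. Its log2 difference is from a mean over classes that include epithelial cells (0.204 CPM) and fibroblasts (0.951 CPM). In NK cells 3 were higher and 3 lower (11.4% of all genes), with Nrarp (4.15) and Mfng (2.41) higher and Rbpj (-1.91) and Dtx4, at 0 in NK cells, lower. In epithelial cells, fibroblasts and dendritic cells the share called was near that of all genes. The list's median was 0.06 in epithelial cells, 0.15 in fibroblasts, 0.37 in macrophages, 0.02 in dendritic, 0.25 in T and -0.35 in NK cells, against 0.14, 0.05, 0.03, -0.01, 0.07 and -0.35 over all genes in that order of classes.

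Hes1, named here after its values were seen, was highest in Dormant in all 5 classes that could be read in more than 1 stage. In Long-term dormant it was at 95.7 CPM in epithelial cells, 293 CPM in fibroblasts, 9.81 CPM in macrophages, 5.41 CPM in dendritic cells and 11.2 CPM in T cells. In Dormant it was at 249, 630, 113, 89.2 and 40.5 CPM in that order of classes. Each ratio between these 2 libraries was past the threshold, from a log2 ratio of -3.98 in dendritic cells to -1.10 in fibroblasts for Long-term dormant against Dormant. Over these classes 11.7% to 15.6% of all genes were past it. Notch2 was at a higher value in Long-term dormant than in Dormant in all 5 classes, past the threshold in macrophages and dendritic cells. Its interval included 0 in epithelial cells (-0.37 to 2.12), fibroblasts (-0.12 to 0.46) and T cells (-0.66 to 1.52). All 5 classes share the same 2 libraries. In T cells of the antibody arms Hes1 was the only pathway gene of 31 with enough UMIs that was past the threshold, at 5.11 CPM in Jag1 and 1.60 CPM in IgG (log2 ratio 1.62, 0.73 to 2.75), where 2.61% of all genes were, so 1 gene of 31 is near that share.

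The genes whose level was most like that of a receptor were found over the 23 sums, as a Pearson correlation of log2(CPM + 1) among 10703 genes (10704 for Notch4). These sums share libraries, kits and depth, so the values are descriptions. For Notch1 they were Arfgef1 (0.91), Gcn1 (0.89) and Rcc2 (0.89), and for Notch2 Myo9a (0.84), Eid1 (0.78) and Ust (0.78). For Notch3 they were Ubd (0.96), Cdc42ep1 (0.95) and Tmem30b (0.94), with medians in epithelial cells of 25.2, 15.9 and 27.3 CPM and at most 5.02 CPM in any other class. For Notch4 they were Ffar4, Zfp366 and Snx22 (0.88 each), with medians in dendritic cells of 40.2, 23.9 and 36.1 CPM and at most 1.73 CPM in any other class.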

How the data were processed

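Each of the 6 groups had 1 library of single mouse cells. The deposited tables, 2 in number, hold UMI counts of genes in cells, made by the authors with Cell Ranger 3.1.0 on mm10, with FastQC also named, per the submitters' processing notes. Other filters before deposit are not given in the sources used here, and 0 columns of cells were left unused.

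A cell needed 500 or more UMIs, 200 or more genes and a mitochondrial share of no more than 20%. Scrublet in scanpy 1.11.5 marked 53, 0, 137 and 57 doublets in Primary, Dormant, Long-term dormant and Recurrent, 7 in Jag1 and 5 in IgG, so it in effect did not work in Dormant, Jag1 and IgG. Each kept cell went to the class with the most detected markers. Counts were summed per class and library, and sums of at least 50 cells were tested with edgeR 4.0.16 (R 4.3.3), with TMM factors, a filter on low counts and terms for class and library. DESeq2 1.42.0 was an alternative. Levels and shares carry exact 95% intervals that cover counting error only. The scripts were tested on simulated counts.

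The receptors and lists were chosen with earlier results of these data known. Named besides the receptors were the 3 genes most like each and up to 4 pathway genes per class with the largest called difference. Alternatives varied gate, filters, doublets, normalization, libraries and thinning.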

Additional observations from a re-analysis of the deposited data

Results flagged for a closer look

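Notch1 differed in direction between 2 classes in the same comparison. Recurrent against Primary gave a log2 ratio of -0.48 (-0.68 to -0.27) in epithelial cells and 0.54 (0.08 to 1.00) in macrophages, on opposite sides of 0. In epithelial cells Notch1 was at 21.1 CPM in Recurrent and 29.3 CPM in Primary, and in macrophages at 10.8 CPM in Recurrent and 7.46 CPM in Primary. With 1 library per stage the difference between the classes was not tested, neither ratio reached 2-fold, and the intervals cover counting error only.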

How the results depend on the processing

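With 1 library per group no comparison of stages or arms has a replicate check, and depth limits NK cells, Dormant macrophages and all of Notch4. Keeping doublets, the stricter cell filter and leaving out barcodes shared by Jag1 and IgG (chosen after seeing the data) changed none of 44 class tests. Keeping doublets could change little in Dormant, Jag1 and IgG, where 0, 7 and 5 cells were marked. Log2 differences and adjusted p by edgeR's quasi-likelihood test follow, unless DESeq2 is named. For Notch1 in T cells the difference was 0.59 with a gate of 4 markers and a lead of 3 (edgeR adjusted p = 0.16), 0.47 with DESeq2 (adjusted p = 0.079), 0.46 with no filter on low counts (edgeR adjusted p = 0.11), 0.64 in stage libraries (edgeR adjusted p = 0.11), 0.35 in antibody libraries (edgeR adjusted p = 0.50) and 0.48 with sums of at least 20 cells (edgeR adjusted p = 0.089). Leaving out 1 library gave 0.49 to 0.74, not called without Primary (0.55), Dormant (0.49) or Jag1 (0.55). With no library term Notch1 was at 0.93 in epithelial cells (edgeR adjusted p = 0.054) and -1.15 in fibroblasts (edgeR adjusted p = 0.071). Dendritic Notch1 was called with a gate of 2 markers and a lead of 1 (-0.91, edgeR adjusted p = 0.036) and with library totals only (-1.12, edgeR adjusted p = 0.015).

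Notch2 in T cells was at -0.37 in stage libraries (edgeR adjusted p = 0.72), at 0.13 with the sign turned in antibody libraries (edgeR adjusted p = 0.89) and at -0.56 with no library term (edgeR adjusted p = 0.15). Leaving out 1 library gave -0.78 to -0.47, not called without Primary (-0.67), Dormant (-0.65), Long-term dormant (-0.47), Jag1 (-0.52) or IgG (-0.61). Notch2 was at -1.01 in epithelial cells of stage libraries (edgeR adjusted p = 0.12) and at 0.59 in macrophages with classes from clusters (edgeR adjusted p = 0.019, called). In fibroblasts leaving out 1 library gave 0.60 to 1.26, not called without Dormant (0.60), and in NK cells -1.73 to -0.98, called without Recurrent (-1.46, edgeR adjusted p = 0.047). Notch3 in Recurrent against Dormant epithelial cells was at -1.19 with classes from clusters.

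Genes called in dendritic cells numbered 1909, 1035 without cells holding an endothelial or pericyte marker (chosen after seeing the data) and 1125 to 1835 leaving out 1 library, lowest without Long-term dormant (1125) and Dormant (1143). T cells had 3515, 2188 in stage libraries and 1323 in antibody libraries. NK cells had 1259, 2202 with the gate of 2 markers, 149 without the marked cells, 158 in stage libraries, 2708 with no library term and 601 to 1290 leaving out 1 library, with 601 without Dormant, 664 without Jag1 and 721 without IgG. The causes were not tested. No paired analysis was possible because each group has 1 library.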
